A study of Homo sapiens with 6 samples.

Results

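MHC class I molecules present peptides to CD8+ T cells, and 9 genes that serve this task were compared between BT-549 cells with and without silencing of IRF1. They were taken by gene symbol from the 37887 genes listed in the count table. The set was drawn up by function, with earlier results of these data known. All 9 genes were found, and all 9 were among the 18851 genes that passed the filter on low counts. They encode the light chain of class I (B2M), a heavy chain (HLA-E), the peptide transporter (TAP1, TAP2), peptide editors (TAPBP, TAPBPL), peptide-trimming enzymes (ERAP1, ERAP2) and an activator of class I transcription (NLRC5).

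BT-549 is a long-used line of human breast cancer cells of the triple-negative type (TNBC), which lacks the hormone receptors and HER2 amplification. RNA from 3 control and 3 IRF1shRNA cultures was sequenced as poly(A) libraries with a strand-marking kit. According to the sample titles, the first group (DMSO) carried a control shRNA and the second (doxycycline) an IRF1 shRNA. The design text instead describes 1 cell line that carries a tet-inducible IRF1 shRNA in all samples, given 0.1% DMSO or 500 ng/ml doxycycline. In both readings doxycycline was given to the IRF1shRNA samples and not to the controls. An effect of the drug and one of IRF1 silencing thus cannot be told apart. If the titles are right, the shRNA and the line that carries it also differ between the groups. Their other effects then cannot be told apart from silencing either. Nothing in the labels separates independent clones. The duration of the doxycycline treatment is not given in the sources used here. Values below are CPM, the counts of a gene scaled to a common library total by edgeR's TMM factors.

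In the ER, B2M and a heavy chain form an empty class I molecule that is held in the peptide-loading complex. TAP1 and TAP2 together pump peptides from the cytosol into the ER, tapasin (TAPBP) bridges the transporter to class I and helps to select tightly bound peptides, and TAPBPL (TAPBPR) edits peptides outside that complex. ERAP1 and ERAP2 trim peptides to the length that fits the groove. Many of these genes are induced by interferon (IFN), in part through IRF1, and NLRC5 acts at class I promoters together with the RFX, NF-Y and CREB/ATF factors.

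All 9 genes were lower in IRF1shRNA cells. The decrease ranged from 1.78-fold for TAPBP to 9.05-fold for ERAP2, and the median log2 fold change was -1.32, against -0.00245 over all genes tested. Each of the 9 genes passed an adjusted p of 0.05 (edgeR's quasi-likelihood test, Benjamini-Hochberg adjusted over all genes tested), where 26.4% of all genes were called lower and 24.1% higher. There were 7 genes lower by more than 2-fold, a share of 4.43% among all genes, and ERAP1 and TAPBP were the exceptions. In all 9 genes every IRF1shRNA sample lay below every control sample, as did 29.5% of all genes. By DESeq2, TAPBP was the single gene of the 9 that was not called, with an adjusted p of 0.0826.

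**Figure D1:**
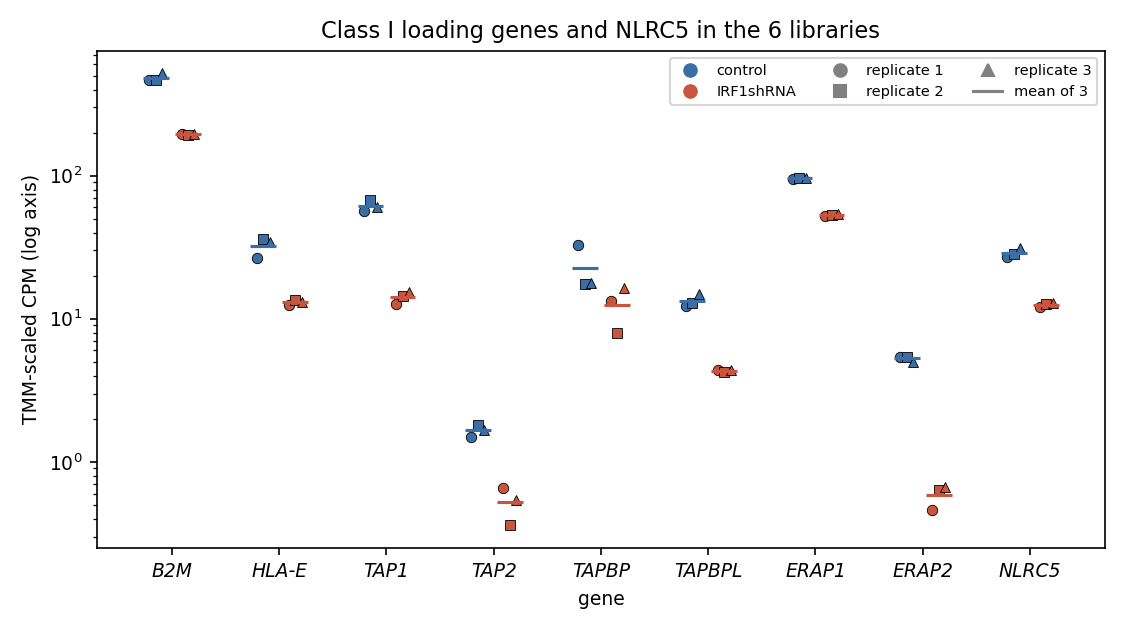
TMM-scaled CPM (log axis) of the 9 genes in each of the 3 control and 3 IRF1shRNA libraries, with the mean of each group as a line. The groups are apart for every gene, widest for ERAP2 (4.96 to 5.44 CPM against 0.460 to 0.662 CPM) and closest for TAPBP, where the lowest control is at 17.6 CPM and the highest IRF1shRNA sample at 16.3 CPM.

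The total count per library was between 55143808 and 160436234, with IRF1shRNA replicate 2 the shallowest. A total of 3 counts, taken as the smallest number detected, was worth 0.0182 to 0.0540 CPM, and this floor covers counting error only. It takes counts as independent, which they are not if both mates of a read pair were counted. IRF1 itself, the silenced gene, was at 45.3, 48.1 and 51.5 CPM in the controls and at 13.8, 14.9 and 14.6 CPM in the IRF1shRNA samples, a log2 fold change of -1.74. The mesenchymal markers VIM, CDH2 and FN1 summed to between 1850 and 1960 CPM in the controls and between 1440 and 1530 CPM after silencing. The epithelial markers EPCAM, CDH1, KRT8 and KRT18 summed to between 8.38 and 8.89 CPM and between 3.91 and 4.46 CPM, in that order. VIM, FN1, KRT8 and KRT18 were called lower, whereas CDH2, CDH1 and EPCAM were not called. Their part in the change of the loading genes was not tested. Of the triple-negative markers, ESR1 was at 0.144 CPM or less and PGR at 0.325 CPM or less, whereas ERBB2 fell from 50.8 ± 3.67 CPM to 36.4 ± 1.6 CPM, and its part in the result was not tested either. The 6 blood cell markers summed to between 1.6 and 1.88 CPM in the controls and between 2.55 and 3.26 CPM after silencing, with MS4A1 at 0 in all 6 libraries and CD3E at 0 in 5. CD14 rose from 1.09 ± 0.135 CPM to 2.22 ± 0.189 CPM, opposite in direction to the class I genes, and its part in their change was not tested. In bulk RNA, fewer cells that express a gene and less RNA per cell cannot be told apart, and the labels describe the replicates only as cultures grown in triplicate.

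The promoters were examined for the sequence to which IRFs bind, since the genes moved together. The RefSeq table of promoter windows, which span 250 bases before to 50 bases after each annotated start (GRCh38.p14), held 11 windows for 7 of the genes, and none for HLA-E and NLRC5. The core of the IFN-stimulated response element (ISRE), written GAAANNGAA and searched on both strands, was found for 6 of the 7 genes and in 6 of their 11 windows. It occurred in 8.11% of the 35116 windows of the table. The 30 bases around each match follow, 5′ to 3′ in the direction of the gene, with the matched letters in capitals. A match on the opposite strand is shown as it reads along the gene and begins with TTC, and 2 overlapping matches read as 1 longer run.
B2M, chr15:44711366-44711395, plus strand: actctaaGAAAAGGAAACTGAAaacgggaa
TAP1, chr6:32853815-32853844, minus strand: ggccgctTTCGATTTCGCTTTCccctaaat
TAP2, chr6:32838778-32838807, minus strand: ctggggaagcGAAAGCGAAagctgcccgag
TAPBP, chr6:33314076-33314105, minus strand: tttggagGAAAGTGAAAGTGAAaggaggaa
ERAP1, chr5:96807923-96807952, minus strand: gggctccactTTCACTTTCggtcctggggg
ERAP2, chr5:96876460-96876489, plus strand: tcttagaacaGAAAGTGAAagcaaaagtaa

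B2M, TAP1 and TAPBP each held 2 overlapping copies, and TAP2, ERAP1 and ERAP2 held 1. The TAP1 and ERAP1 matches lay on the opposite strand. With the start counted as 0, the match of ERAP1 spanned 3 to 11. The others lay before the start and ended at -6 for TAPBP, -22 for ERAP2, -50 for TAP2, -119 for TAP1 and -130 for B2M. Neither of the TAPBPL windows held these letters. The log2 fold change ran from -0.83 (TAPBP) to -2.13 (TAP1) in genes with 2 copies. It ran from -0.85 (ERAP1) to -3.18 (ERAP2) in genes with 1 copy, and was -1.62 for TAPBPL. A match shows letters and not binding, and whether the matches bear on the decrease was not tested. The gamma-activated sequence (GAS), TTCNNNGAA, was found in 1 of the 11 windows, the other one of TAP1, and in 7.66% of all windows. The CCAAT box of NF-Y was found in 3 of the 11 windows (1 each of B2M, TAP1 and ERAP1), and in 34.6% of all windows.

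**Figure D2:**
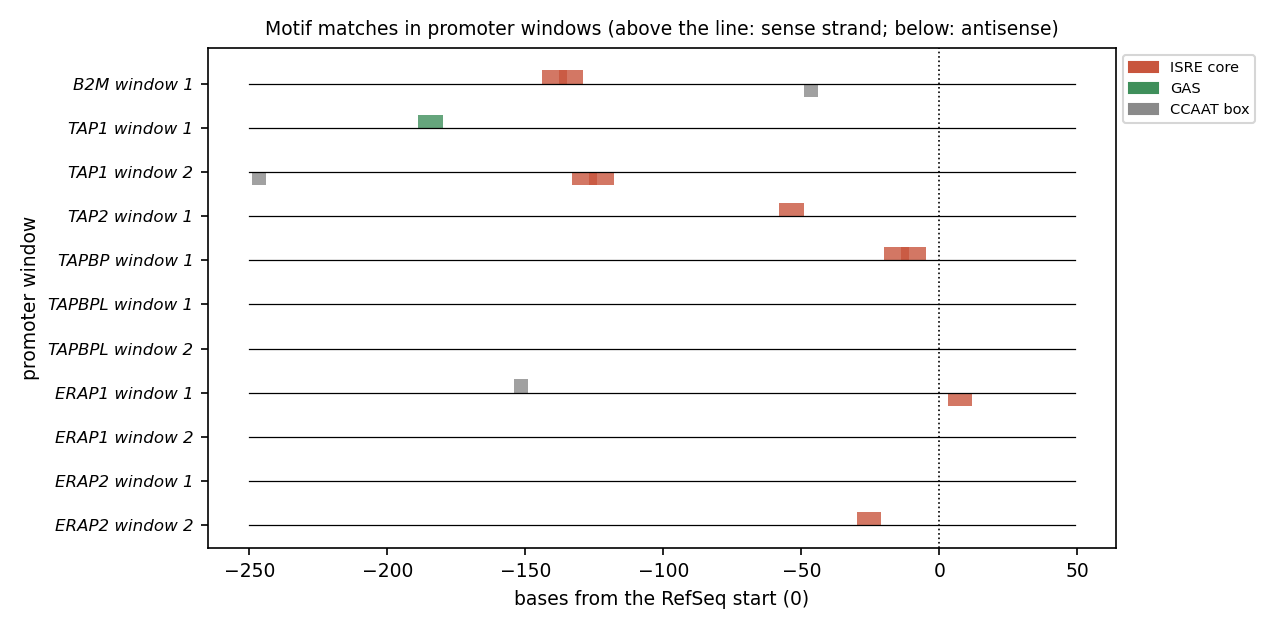
Positions of the ISRE core (red), gamma-activated sequence (green) and CCAAT box (grey) in the 11 promoter windows, in bases from the RefSeq start at 0, with matches on the sense strand above the line and on the antisense strand below it. Red marks are seen in 6 windows, from position -144 in B2M to position 11 in ERAP1.

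The whole upstream stretch of 250 bases is given for B2M, the subunit that all class I molecules need, and for TAP1, which had the lowest log2 fold change of the 4 genes that lie in the MHC region. Capitals again mark the ISRE core. The TAP1 start used here (chr6:32853704) lies 488 bases from that of PSMB9, an immunoproteasome subunit transcribed in the other direction. The other TAP1 start (chr6:32852761) lies farther from PSMB9. The PSMB9 window held no ISRE core, but it begins at chr6:32853942. It thus does not reach the TAP1 match at chr6:32853815-32853844, which lies between the TAP1 and PSMB9 starts. Whether that match acts on PSMB9 was not tested. In PSMB8, another such subunit, 1 window held 1 ISRE core.
B2M, chr15:44711267-44711516, plus strand: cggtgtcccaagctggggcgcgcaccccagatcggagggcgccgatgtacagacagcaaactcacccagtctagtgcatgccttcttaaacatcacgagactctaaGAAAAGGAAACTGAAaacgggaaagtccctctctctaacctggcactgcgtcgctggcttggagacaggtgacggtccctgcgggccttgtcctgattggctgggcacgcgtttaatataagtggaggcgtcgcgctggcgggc
TAP1, chr6:32853705-32853954, minus strand: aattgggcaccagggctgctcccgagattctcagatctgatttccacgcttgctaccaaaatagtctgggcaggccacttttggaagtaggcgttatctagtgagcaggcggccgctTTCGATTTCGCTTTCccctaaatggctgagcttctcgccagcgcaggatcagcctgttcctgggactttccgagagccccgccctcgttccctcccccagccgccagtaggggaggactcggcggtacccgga

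The light and heavy chains were compared first. B2M (ENSG00000166710, chr15:44711487-44718877) was at 463, 468 and 519 CPM in the controls, against 197, 191 and 194 CPM after silencing (replicates 1 to 3 of each group). The 3 IRF1shRNA samples lay close together and far below the controls. B2M thus fell to 40.1% of control, with a log2 fold change of -1.32 ± 0.05 (SE) and an adjusted p of 6.36e-13 by edgeR. HLA-E (ENSG00000204592, chr6:30489467-30494205) presents leader peptides of other class I chains to the NKG2A receptor of natural killer cells. It was at 26.4, 36.0 and 34.1 CPM in control and at 12.5, 13.5 and 13.1 CPM in IRF1shRNA samples. Control replicate 1 was the lowest of the controls but still above every IRF1shRNA sample. HLA-E fell to 40.5% of control, with a log2 fold change of -1.31 ± 0.09 and an adjusted p of 2.61e-09 by edgeR. Both chains fell by a similar factor. The log2 ratio of B2M to HLA-E within a library was 3.92 ± 0.22 in control and 3.90 ± 0.08 in IRF1shRNA samples (SD, n = 3 each), a difference of -0.024 (exact permutation p = 0.900, adjusted p = 0.900 over 6 pairs). This small difference changed sign without control replicate 1 (0.082) or IRF1shRNA replicate 2 (0.013).

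The transporter subunits are both needed for a working pump. TAP1 (ENSG00000168394, chr6:32845209-32853978) was at 56.4, 67.8 and 60.6 CPM in control and at 12.6, 14.3 and 15.4 CPM after silencing (replicates 1 to 3). It fell to 22.9% of control, a 4.37-fold decrease (log2 fold change -2.13 ± 0.08, adjusted p of 5.19e-13 by edgeR). Of all genes tested, 0.732% had a log2 fold change as low or lower. TAP2 (ENSG00000204267, chr6:32821833-32838780) was counted far less, at 1.49, 1.8 and 1.68 CPM in control and at 0.659, 0.360 and 0.541 CPM in IRF1shRNA samples. The lowest of these, in the shallowest library, rested on 20 counts, and the groups did not overlap. Of the counts from 2 to 11 in that library 75.2% were even, so these 20 may stand for fewer read pairs. TAP2 fell to 31.4% of control (log2 fold change -1.61 ± 0.19, adjusted p of 1.82e-06 by edgeR). Thinning every library to the smallest total moved this value to -1.36. The TAP2 count is uncertain, since the handling of reads that map to several places is not given. In addition, 32.3% of its exon bases are annotated to a same-strand gene, AL669918.1. The count table has no row for that gene, so whether the overlap affected the TAP2 count is not known. The log2 ratio of TAP1 to TAP2 was 5.22, 5.22 and 5.16 in control but 4.22, 5.25 and 4.79 in IRF1shRNA replicates 1 to 3. The groups overlapped, and the difference was -0.45 on the log2 scale (exact permutation p = 0.400, adjusted p = 0.480 over 6 pairs). It was -0.18 without IRF1shRNA replicate 1 and -0.70 without IRF1shRNA replicate 2. With 3 against 3 samples the exact permutation test of a ratio cannot go below p = 0.100, so it cannot reach 0.05.

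The editors differed in how evenly they were measured. TAPBP (ENSG00000231925, chr6:33299694-33314387) was at 32.8, 17.6 and 17.8 CPM in control and at 13.4, 7.95 and 16.3 CPM after silencing (replicates 1 to 3). Control replicate 1 stood high and IRF1shRNA replicate 2 low, and the remaining samples of the groups nearly met. The log2 fold change of TAPBP came to -0.83 ± 0.22 (adjusted p of 0.00369 by edgeR). Without control replicate 1 the value was -0.47 with an edgeR adjusted p of 0.0324, and without IRF1shRNA replicate 2 it was -0.60 with an edgeR adjusted p of 0.0256. TAPBPL (ENSG00000139192, chr12:6451690-6466517) was tight by comparison, at 12.2, 12.9 and 14.8 CPM in control and at 4.36, 4.22 and 4.37 CPM in IRF1shRNA samples. It fell to 32.4% of control (log2 fold change -1.62 ± 0.09, adjusted p of 6.35e-11 by edgeR). On the opposite strand 10.6% of its exon bases belong to VAMP1, which was at 4.67 ± 0.272 CPM in the controls, at 5.28 ± 0.561 CPM after silencing, and not called (adjusted p of 0.108 by edgeR). The log2 ratio of TAPBP to TAPBPL was 0.71 ± 0.62 in control and 1.48 ± 0.51 in IRF1shRNA samples, with overlap between the groups (exact permutation p = 0.200, adjusted p = 0.300).

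The peptide-trimming enzymes showed the smallest precise decrease and the largest one. ERAP1 (ENSG00000164307, chr5:96760810-96808100) was at 94.8, 96.2 and 97.0 CPM in control and at 52.5, 53.4 and 54.3 CPM after silencing (replicates 1 to 3). Its replicates differed by less than those of any other gene of the 9, with a within-group SD of 0.0207 on the log2 scale. ERAP1 fell to 55.6% of control (log2 fold change -0.85 ± 0.04, adjusted p of 2.04e-11 by edgeR). ERAP2 (ENSG00000164308, chr5:96875939-96919716), its neighbor on chromosome 5, was at 5.43, 5.44 and 4.96 CPM in control and at 0.460, 0.631 and 0.662 CPM in IRF1shRNA samples. It fell to 11.1% of control (log2 fold change -3.18 ± 0.14, adjusted p of 5.32e-12 by edgeR), and 0.297% of all genes tested were at or below this value. The balance of the enzymes also differed. The log2 ratio of ERAP1 to ERAP2 was 4.12, 4.14 and 4.29 in control and 6.78, 6.37 and 6.32 in IRF1shRNA replicates 1 to 3. The ratio was thus 4.96-fold higher, with no overlap, at the smallest exact permutation p that 3 against 3 samples allow (p = 0.100, adjusted p = 0.200). The CAST gene, which shares 3.76% of the ERAP1 exon bases on the opposite strand, fell by 0.39 on the log2 scale.

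NLRC5 (ENSG00000140853, chr16:56989485-57083531) was at 26.9, 28.5 and 31.3 CPM in control and at 12, 12.7 and 12.8 CPM after silencing (replicates 1 to 3). The groups were well apart. NLRC5 fell to 43.1% of control, with a log2 fold change of -1.21 ± 0.07 and an adjusted p of 1.74e-10 by edgeR. The log2 ratio of NLRC5 to IRF1 went from -0.74 ± 0.02 in control to -0.21 ± 0.02 in IRF1shRNA samples. These groups did not overlap (exact permutation p = 0.100, the smallest possible, adjusted p = 0.200). Since IRF1 is the silenced gene, such a ratio rises for any gene that falls by less than IRF1. It therefore shows nothing particular to NLRC5. CACNG4 (distance 0.0889) and ITGA5 (0.0948) were among the 3 genes with the profile nearest to that of NLRC5. The distance is Euclidean, over the log2 CPM of the 6 samples less the control mean, among 13066 genes averaging 1 CPM or more. The genes nearest to TAP1 were DTX3L (0.226), GPNMB (0.232) and TRIM21 (0.248), by the same measure.

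**Figure D3:**
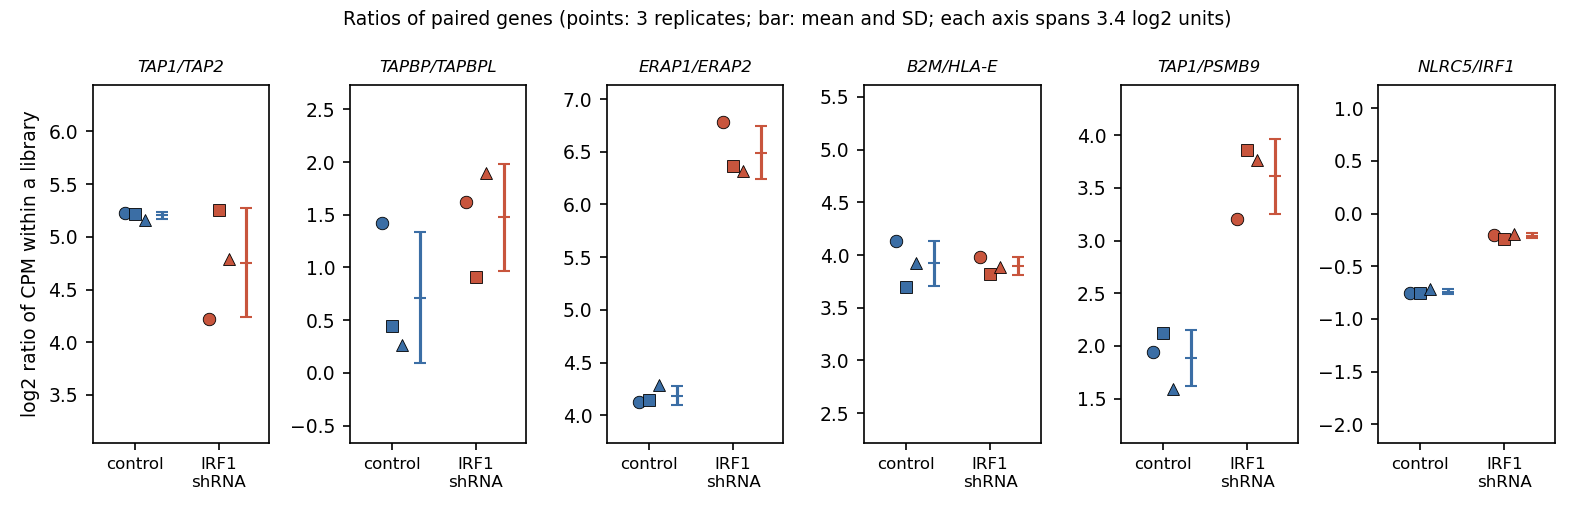
Log2 ratio of CPM within each library for 6 pairs of genes, with points for the 3 replicates of control (blue) and IRF1shRNA (red) samples and bars for the mean and SD. The ERAP1/ERAP2, TAP1/PSMB9 and NLRC5/IRF1 ratios are higher in every IRF1shRNA library, whereas TAP1/TAP2, TAPBP/TAPBPL and B2M/HLA-E overlap. In NLRC5/IRF1 the second gene is the silenced one.

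Levels were compared between genes per kilobase of exon (CPM divided by the summed length of all annotated exons of GENCODE release 29, which lowers genes with long, little-used exons). In control cells B2M was highest, at 79.5 ± 5.13 CPM per kilobase (SD, n = 3), followed by TAP1 (12.8 ± 1.20), ERAP1 (12.1 ± 0.142) and HLA-E (10.8 ± 1.71), whose ranges overlapped. TAPBP (4.50 ± 1.72) and TAPBPL (4.17 ± 0.423) also overlapped. NLRC5 (2.33 ± 0.183), ERAP2 (0.711 ± 0.0373) and TAP2 (0.259 ± 0.0244) followed without overlap. In IRF1shRNA cells TAP1 was no longer next to B2M. The order there was B2M (31.9), ERAP1 (6.72), HLA-E (4.38), TAP1 (2.93), TAPBP (2.48), TAPBPL (1.35), NLRC5 (1.01), TAP2 (0.0814) and ERAP2 (0.0787). Of the neighbors in that order, TAP1 overlapped with TAPBP, and TAP2 with ERAP2. The place of TAP2 in both groups rests on an uncertain count (above), so it may not reflect the level of its RNA. The handling of reads that map to several places is not given, which limits the levels of the other MHC region genes as well.

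Of the 9 genes, 4 (HLA-E, TAP1, TAP2 and TAPBP) lie in the MHC region of chromosome 6, taken here as GABBR1 to KIFC1 (chr6:29602238-33409896). Counts in this region differed more between replicates than elsewhere. The median within-group SD of log2 CPM was 0.166 over the 60 genes of the region that averaged 1 CPM or more, and 0.0714 over all 13066 such genes. The SD was above 1 for 7 of the 60 genes (11.7%), against 0.0918% of all. For the genes of interest it was 0.141 for TAP1, 0.175 for HLA-E, 0.318 for TAP2 and 0.524 for TAPBP. Outside the region it was 0.0207 to 0.203, the highest being ERAP2. The SD was smaller than the size of the log2 fold change for all 9 genes, by the smallest margin for TAPBP.

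**Figure D4:**
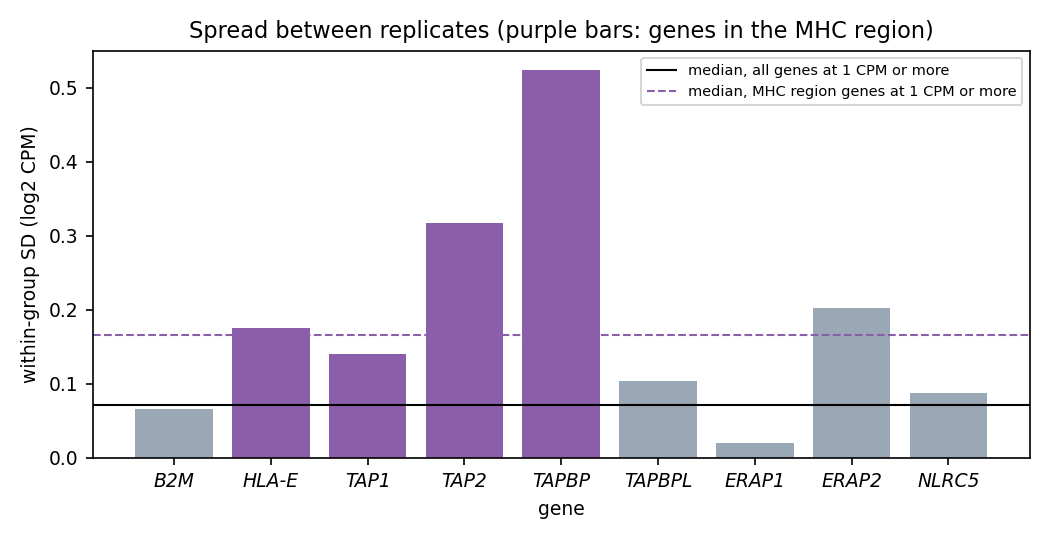
Within-group SD of log2 CPM for the 9 genes, with those of the MHC region in purple, and the medians of all genes (solid line, 0.0714) and of MHC region genes (dashed line, 0.166) at 1 CPM or more. TAPBP and TAP2 stand highest, at 0.524 and 0.318.

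The rest of the class I pathway did not move as 1 block. Among all genes tested, 26.4% were called lower and 24.1% higher, and the counts of each list stand beside these shares. Of the inducible proteasome subunits and the PA28 activator, which shape class I peptides, all 5 genes were called lower, namely PSMB9 (log2 fold change -3.84), PSMB8 (-1.99), PSME1 (-1.55), PSME2 (-1.25) and PSMB10 (-1.16). The ratio of TAP1 to its divergent neighbor PSMB9 was 3.30-fold higher after silencing, with no overlap (exact permutation p = 0.100, the smallest possible, adjusted p = 0.200). The 4 IFN factors described here were lower as well, namely IRF1 (-1.74), IRF9 (-1.43), STAT2 (-1.01) and IRF2 (-0.295). Of these, IRF1 is the gene that the shRNA targets, so its decrease is no separate finding.

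Of the 5 chaperones that fold class I chains, 4 rose and none fell, beside 24.1% and 26.4% of all genes. HSPA5 (BiP, a general ER chaperone) rose by 0.62, UGGT1 (which returns misfolded glycoproteins to the lectin chaperones) by 0.45, PDIA3 (ERp57, bound to tapasin in the loading complex) by 0.32 and CALR (calreticulin, also of that complex) by 0.20 on the log2 scale. CANX was not called, at 1880 ± 50.6 CPM in the controls and 1860 ± 36.1 CPM after silencing. Its sign depended on the scaling. The median log2 fold change of this list was 0.32, against -1.32 for the 9 loading genes.

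Of 7 other peptidases that act on class I peptides, 2 were called lower, a share close to the 26.4% of all genes, and 4 higher. LNPEP, next to ERAP2 on chromosome 5 and related to both ERAPs, fell by 0.80, and LAP3, a cytosolic leucine aminopeptidase, by 0.39. NPEPPS rose by 0.78, NRDC by 0.24, TPP2 by 0.15 and THOP1, an oligopeptidase, by 0.14. The THOP1 call was lost without control replicate 1 (0.092), control replicate 2 (0.14), IRF1shRNA replicate 1 (0.12) or IRF1shRNA replicate 3 (0.13). BLMH, at -0.058, was not called.

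Of 8 factors that act with NLRC5 at promoters, 2 were called lower, NFYC (-1.13) and ATF1 (-0.19), and 2 higher, NFYA (0.66) and RFXAP (0.65). These shares are close to the 26.4% and 24.1% of all genes. RFX5 (-0.033), RFXANK (-0.14), NFYB (-0.013) and CREB1 (-0.022) were not called, although RFXANK was called lower without control replicate 1 (-0.20). The median of the list was -0.027.

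Other class I heavy chains, the classical HLA-B and HLA-C and the non-classical HLA-F and HLA-G, were counted at low or uneven levels in this table, and their reads are hard to assign among near-identical and polymorphic genes. HLA-C ranged from 0.324 to 8.40 CPM with overlap between groups and was not called. HLA-B was at 0.487, 0.514 and 0.543 CPM in control and at 0.111, 0.252 and 0.0486 CPM in IRF1shRNA samples, and was called lower (adjusted p of 3.15e-04 by edgeR). HLA-F was at 0.130 to 0.161 CPM in control and at or near 0 in IRF1shRNA samples, and was also called lower (adjusted p of 7.05e-04 by edgeR). This rested on 16, 16 and 24 counts in control and on 0, 0 and 4 in IRF1shRNA samples. With halved or thinned counts HLA-F did not pass the filter. HLA-G did not pass the filter.

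Other partners of B2M were examined next. FCGRT, the heavy chain of the neonatal Fc receptor, fell from 3.53 ± 0.312 CPM to 1.42 ± 0.0394 CPM (log2 fold change -1.32), beside -1.32 for B2M. HFE, a regulator of iron uptake, fell by 0.83 on the log2 scale. MR1 (-0.13), which presents microbial metabolites, and CD1D (0.17), which presents lipids, were not called.

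Of 12 class II genes, 5 passed the filter. The class II activator CIITA, a relative of NLRC5, fell from 7.80 ± 0.583 CPM to 3.19 ± 0.188 CPM (log2 fold change -1.28), and CD74, the invariant chain, fell by 0.80. HLA-DMA (-0.46), HLA-DPA1 (-0.69) and HLA-DOB (-1.11) were not called at levels of 0.514 CPM or less, and HLA-DOB was called lower without control replicate 1 (-1.64). HLA-DRA, HLA-DRB1, HLA-DMB, HLA-DPB1, HLA-DQA1, HLA-DQB1 and HLA-DOA did not pass the filter. The class I-like ligands of the NKG2D receptor were mixed, with MICB lower (-0.50) and ULBP1 higher (0.56). MICA (-0.11), ULBP2 (-0.155) and ULBP3 (0.16) were not called, although ULBP3 was called higher under scaling by library size only (0.21).

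**Figure D5:**
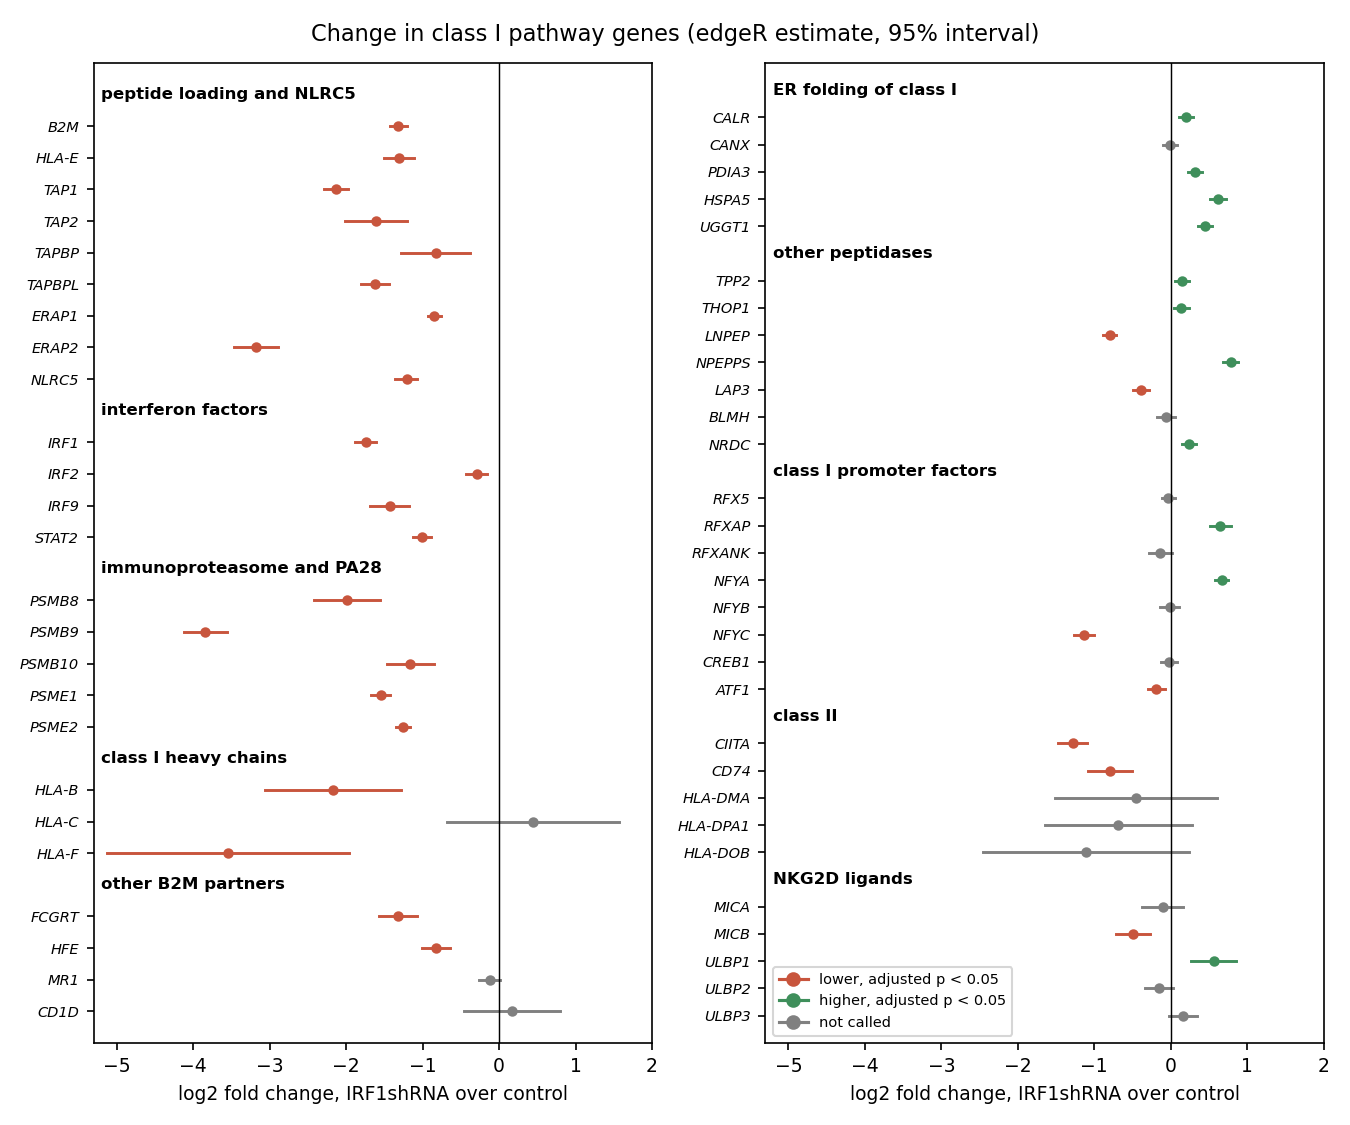
Log2 fold change (IRF1shRNA over control) of the 9 loading genes and of the tested genes of each pathway list, with 95% intervals from the edgeR fit, colored by call at an adjusted p of 0.05. Loading, proteasome and IFN factor genes lie left of 0, and among the IFN factors IRF1 is the silenced gene. Of the ER folding genes 4 of 5 lie right of 0, and HLA-F has the widest interval.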

How the data were processed

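The deposited table holds whole-number counts by gene symbol for the 6 samples, which the authors had not normalized. The submitters' processing notes name CASAVA 1.8.2, STAR 2.7.9a, featureCounts, DESeq2 1.24.0 and the build GRCh38.p7, without roles. The annotation release and the strand setting are not given in the sources used here, so genes that share exon bases are uncertain. The handling of reads that map to several places is not given either, so genes with near copies are also uncertain. Between 72.1% and 75.2% of counts from 2 to 11 were even per sample, as when both mates of a read pair are counted. A spreadsheet had turned 14 symbols into dates.

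Counts of all genes were fitted with edgeR 4.0.16 in R 4.3.3 (quasi-likelihood F test, group as factor, TMM scaling, filterByExpr with a minimum count of 10) and checked on simulated data. P-values were Benjamini-Hochberg adjusted over the 18851 genes tested. The SE is the size of the log2 fold change divided by the square root of F. Levels are TMM-scaled CPM. Ratios used log2 CPM with a prior count of 2 and two-sided exact permutation tests, for which 0.1 is the smallest p with 3 against 3 samples. P-values measure the spread between these samples, which may be technical.

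Alternatives were DESeq2 1.42.0, other scalings, no filter or 1 CPM in 3 samples, the replicate number as a block, halved or thinned counts, and leaving out each library. The 9 genes, the lists and the tests were chosen with earlier results of these data known. The genes named are all 9, every gene of the lists, and the 3 nearest in profile to NLRC5 and to TAP1, except that some items are not reported here and were left out of the lists and their counts. Exon lengths and gene positions are from GENCODE release 29 (GRCh38) and promoters from RefSeq (GRCh38.p14), which share chromosome coordinates with the submitters' build.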

Additional observations from a re-analysis of the deposited data

How the results depend on the processing

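Over 15 alternatives, 134 of 135 log2 fold changes of the 9 genes held in sign and in call. The exception was TAPBP under DESeq2 (-0.85, adjusted p of 0.0826), and the cause was not tested. Across the fits that left out 1 library TAPBP ran from -1.06 to -0.47. The counts of genes called stayed within 1.5 times and the 6 ratio differences within 1 SD. Within that bound the B2M to HLA-E difference of -0.024 changed sign without control replicate 1 (0.082) or IRF1shRNA replicate 2 (0.013), and the TAP1 to TAP2 difference ran from -0.70 to -0.18. With no filter the spread of a gene came from a trend over all genes, so those p-values carry little weight. The median log2 fold change over all genes was 0.049 when scaled by library size alone, against -0.00245.

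Of 678 values for the pathway genes, 646 held, 4 lost and 5 gained a call, and 23 changed sign, with no call in either direction. Settings in which a gene did not pass the filter gave no value and are not among them, as for HLA-F with halved or thinned counts. Under upper quartile scaling and under library size only, in that order, signs changed for CANX (0.032 and 0.038), RFX5 (0.011 and 0.018), NFYB (0.031 and 0.038) and CREB1 (0.022 and 0.029). With at least 1 CPM in at least 3 samples they changed for CANX (0.012), NFYB (0.012) and CREB1 (0.0029), and with thinned libraries for CANX (0.0017) and NFYB (0.000995). Leaving out 1 library gave ranges from -0.083 to 1.20 for HLA-C, -0.038 to 0.37 for CD1D, -0.031 to 0.00065 for CANX, -0.055 to 0.031 for NFYB, -0.055 to 0.014 for CREB1, -0.81 to 0.15 for HLA-DMA and -0.27 to 0.017 for MICA.

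Same-numbered samples of the groups shared little beyond the number, with correlations of their deviations of 0.0137, 0.025 and -0.00724, and 3 of 6 samples correlated best with their own number. With the replicate block 9462 genes were called, against 9519 without it, and no call among the 9 genes changed (TAPBP was at -0.84 with it). TAP2, ERAP2, HLA-B, HLA-F and the class II HLA genes had few counts, which limits their precision.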
